A study of Mus musculus with 84 samples.

Results

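Rosiglitazone (RSG), an insulin sensitizer that acts as an agonist of the nuclear receptor PPARγ, was given by mouth for 18 days at 84 µmol/kg to diabetic db/db mice, and the change in mRNA levels in inguinal adipose tissue (IAT), the subcutaneous fat of the groin, was set against the change in liver. The comparison holds 12 of the 84 samples of the series, 6 of IAT and 6 of liver, each from 1 mouse and hybridised on a dye-swap pair of 2-colour arrays, which makes 24 of the 168 arrays. Samples were chosen by their labelled tissue, compound and dose, and 21959 of the 41174 probes entered the comparison because they lay well above background in both tissues (in the treated mouse or in the reference, on at least 6 of the 12 arrays of each tissue). All mice, treated and reference, were males of the strain BKS Cg-m+/+ Leprdb/J, 8 weeks old when obtained. They lack a working leptin receptor, eat in excess and become obese and insulin resistant. The reference on every array was a pool of RNA from 6 db/db control mice that had received the vehicle, 1 pool for each tissue, so that each pool is a single control sample with no spread of its own. Each value is the log2 ratio of a treated mouse over the pool of its own tissue, and a difference is the IAT ratio minus the liver ratio. By the study's methods a treatment group held 6 mice, and liver and IAT were both removed from them when dosing ended, so that the 6 livers and the 6 IAT samples appear to share their animals. The labels do not say which liver belongs to which IAT sample, and the test treated all 12 samples as independent.

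PPARγ is most abundant in adipocytes, where with its partner RXR it switches on the genes of fat cell differentiation, fatty acid uptake and triglyceride storage, and it is scarce in normal liver, though raised in fatty livers of obese mice. Thiazolidinediones are known for drawing fatty acids into subcutaneous fat and for raising mitochondrial content there. Liver answers to insulin mainly through glucose output, glycogen and lipogenesis, whereas fat takes up glucose through an insulin-regulated transporter and releases fatty acids when insulin falls.

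The defining transcripts were found in the tissues so labelled. Albumin (Alb) had a median processed signal of 395000 in the liver pool and 2180 in the IAT pool, and the plasma protein Ttr lay above background on all 12 liver arrays and on none of the 12 IAT arrays. Adiponectin (Adipoq) and the droplet protein Plin1, which define fat cells, read 107000 and 99900 in the IAT pool, and were above background in treated liver on 4 and 0 of 12 arrays. A median of 71.0% of probes lay well above background in treated IAT (63.2 to 73.6% by array) and 53.1% in treated liver (43.4 to 61.3%), with a median signal of 3.73 times the background in IAT and 1.87 times in liver. The ratios of the treated mice correlated with the mean of the rest of their group at 0.755 to 0.923, lowest for liver replicate 5 (0.755) and, within IAT, for replicate 4 (0.788). The arrays of each tissue were on 3 slides and scanned on 2 days, and no slide or scan day held both tissues, so that an effect of slide or day and an effect of tissue cannot be told apart.

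The response to RSG differed between the tissues for most of the transcripts measured. Of the 21959 probes, 14231 (64.8%) had an adjusted p under 0.05 for the difference (limma, Benjamini-Hochberg over all probes), 9335 (42.5%) higher and 4896 (22.3%) lower in IAT. With the brightest probe taken for each of 11882 named genes, 7846 (66.0%) differed, 4513 higher in IAT (38.0%) and 3333 lower (28.1%), and the split turned to 3335 higher and 4319 lower when each sample was centred on its median ratio. Against its own pool, IAT raised 4376 genes (36.8%) and lowered 3853 (32.4%), and liver raised 3518 (29.6%) and lowered 3964 (33.4%). The median SD of a gene between mice was 0.11 in IAT and 0.12 in liver (n = 6), p-values measure the spread between mice around a single pool, and most differences were small. The difference reached 1 log2 unit, a doubling, for 819 genes. In 2112 genes (17.8%) the tissues moved in opposite directions, with both responses and the difference called, and in 3190 (26.8%) they moved the same way, of which 1542 still differed in size. The 6 IAT and the 6 liver values did not overlap for 5257 genes (44.2%) and 9097 probes (41.4%). Across the genes the mean responses of the tissues had r = 0.13 and rho = 0.16, a description over genes, which are not independent.

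**Figure D1:**
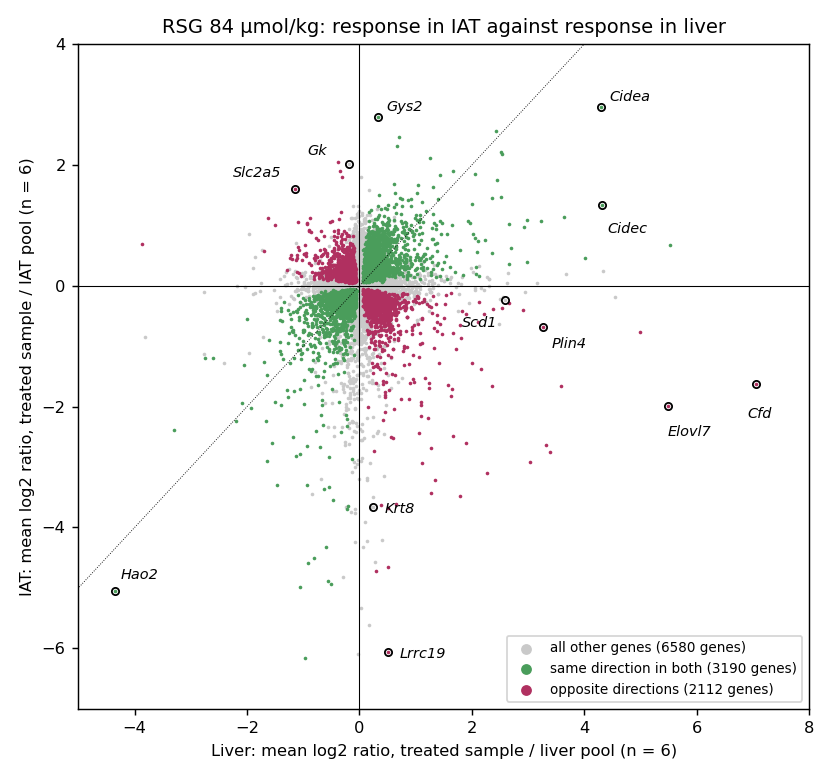
Mean log2 ratio of treated mouse over pool for 11882 genes, in liver on the horizontal axis and in IAT on the vertical axis (n = 6 samples each), with genes called in opposite directions (2112) and in the same direction (3190) in colour and equal responses on the dotted line. The cloud lies along both axes rather than on the dotted line, and Cfd, far to the right, is 7.05 in liver and -1.63 in IAT.

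The largest difference was that of a fat cell gene that rose in liver, and further genes of the fat cell rose there with it. Complement factor D (Cfd, adipsin), a serine protease secreted by adipocytes, ran from 6.68 to 7.28 (median 7.12) in the 6 livers and from -1.98 to -1.32 (median -1.68) in the 6 IAT samples. Every liver was above its pool and every IAT sample below, a difference of -8.69 ± 0.12 log2 units (SE), or 412-fold (adjusted p = 9.8e-14). Perilipin 4 (Plin4), a coat protein of small lipid droplets, lay between 2.91 and 3.74 in liver and between -0.86 and -0.56 in IAT, again without overlap (-3.95 ± 0.12, adjusted p = 8.1e-11). The droplet protein Cidec rose in both tissues, from 4.14 to 4.66 in liver and from 1.06 to 1.54 in IAT, and every liver exceeded every IAT sample (-2.99 ± 0.09, adjusted p = 1.3e-10), although its spot was saturated in the treated channel on 6 of 12 IAT arrays. Resistin (Retn), an adipokine of mouse fat, rose in liver (median 2.70) and fell in IAT (median -0.31), a difference of -2.95 ± 0.15 (adjusted p = 8.7e-09), or -1.82 with another background correction, normexp, and loess.

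Of the 12 adipocyte markers listed, 7 could be measured in both tissues, and 6 of these rose in liver against 2 in IAT, with medians of 2.65 (1.53 with normexp and loess) and 0.11. The exception in liver was the insulin-regulated glucose transporter Slc2a4 (GLUT4), which fell there (-1.88 to -0.67, median -0.78) and rose in IAT (0.38 to 0.81), a difference of 1.51 ± 0.18 (adjusted p = 1.3e-05), or 0.88 with normexp and loess. In a whole tissue, fewer cells of a type and less RNA per cell cannot be told apart, and the same holds for a gain. The defining markers Adipoq and Plin1 stayed near background in treated liver, with median signals of 14.4 and 16.8, against 198000 and 106000 in treated IAT.

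**Figure D2:**
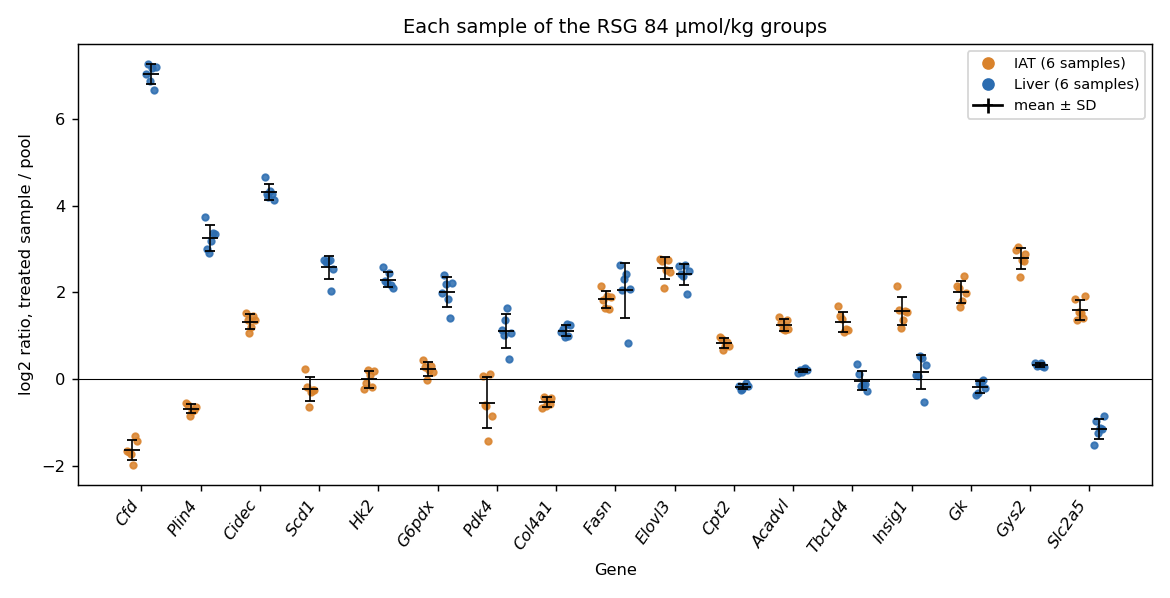
Log2 ratio of treated mouse over pool for each of the 6 IAT and 6 liver samples, with mean ± SD, for 17 genes. From the left, Cfd, Plin4, Cidec and Scd1 are higher in every liver than in every IAT sample, Fasn and Elovl3 overlap, and from Cpt2 to Slc2a5 every IAT sample lies above every liver.

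Genes that take up and bind fatty acids followed the same pattern. Of 18 measured, 11 rose and 2 fell in liver (median 0.57), whereas 5 rose and 6 fell in IAT (median 0.00). Of the same 18, 13 were lower and 2 higher in IAT than in liver. Over all genes the medians were 0.02 in IAT and -0.02 in liver. The counts of this and later lists stand beside the shares of all genes. In IAT 36.8% rose and 32.4% fell, and in liver 29.6% rose and 33.4% fell. The difference was higher in IAT for 38.0% and lower for 28.1%. The fatty acid binding protein Fabp4 had a mean of 3.67 in liver and 0.20 in IAT (-3.47 ± 0.23, adjusted p = 1.1e-07), and lipoprotein lipase (Lpl), which frees fatty acids from circulating lipoproteins, 2.63 and 0.04 (-2.58 ± 0.18, adjusted p = 1.6e-07). Both spots were saturated for the treated RNA on 6 of the 12 IAT arrays and for the pool on 6, and dimmer probes of the same genes, never saturated, gave -3.81 for Fabp4 and -2.16 for Lpl. The fatty acid translocase Cd36 ran from 0.74 to 1.07 in liver and from -0.16 to 0.13 in IAT (-0.83 ± 0.06, adjusted p = 2.8e-07), and the acyl-CoA synthetase Acsl5 rose in liver (mean 0.82) and fell in IAT (-0.27). Against the majority, the fatty acid transporter Slc27a1 (FATP1) rose in IAT (0.45) and fell in liver (-0.51, difference 0.96 ± 0.10, adjusted p = 4.3e-06). The lipoprotein receptor Vldlr was the other member higher in IAT, by 0.18, which did not pass the test with median-centred ratios (adjusted p = 0.22) or without any of several single samples. A dimmer Vldlr probe gave a larger difference, 0.72 (adjusted p = 4.1e-06), with means of 0.92 in IAT and 0.20 in liver.

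Lipid droplet genes divided in the same way. In liver 10 of 12 rose and 1 fell, in IAT 7 rose and 5 fell, and 9 were lower in IAT. Of all genes, 29.6% rose in liver, 36.8% rose in IAT and 28.1% were lower in IAT. Hilpda, an inhibitor of triglyceride breakdown on droplets, fell in IAT (mean -0.76) and rose in liver (0.68). Perilipin 5 (Plin5), which tethers droplets to mitochondria, was the 1 member higher in IAT (0.99 against 0.24, adjusted p = 5.2e-05). Of the adiponutrin gene Pnpla3, a lipid droplet enzyme induced by feeding, the liver values ran from 0.98 to 3.47 and the IAT values from -0.30 to 0.37, a difference of -2.44 ± 0.35 (adjusted p = 5.5e-05).

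Most lipogenesis genes rose in both tissues. Of 16 genes measured, 14 rose in IAT and 14 in liver, 13 of them in both, and the medians were 0.89 in IAT and 1.06 in liver. Fatty acid synthase (Fasn), the enzyme that builds palmitate, ran from 1.63 to 2.15 in IAT and from 0.82 to 2.63 in liver. The groups overlapped (-0.21 ± 0.24, adjusted p = 0.47), and without liver replicate 5, the lowest liver, the difference was -0.45 with an adjusted p of 0.0060 in limma. The spot was saturated for treated RNA on 6 of 12 IAT arrays, and a dimmer probe of Fasn, not saturated in IAT, gave 0.35 (adjusted p = 0.15). Acly, which makes cytosolic acetyl-CoA, and Acaca, the first committed enzyme, had means of 1.53 and 1.39 in IAT and 1.02 and 1.12 in liver, with adjusted p = 0.10 and 0.15 for the difference.

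Single steps of this pathway differed between the tissues. Stearoyl-CoA desaturase 1 (Scd1), which makes monounsaturated fatty acids, ran from 2.05 to 2.74 in liver and from -0.65 to 0.22 in IAT (-2.82 ± 0.14, adjusted p = 8.8e-09, spot saturated on 4 of 12 IAT arrays for either RNA). The elongase Elovl5 and the mitochondrial acetyl-CoA carboxylase Acacb were higher in liver, at 1.21 and 1.26 against 0.29 and 0.47 in IAT. The citrate carrier Slc25a1 and the lipogenic transcription factor Srebf1 were higher in IAT, with medians of 1.51 and 0.94 against 0.38 and 0.11 in liver (adjusted p = 1.1e-07 and 2.2e-06 for the difference). Insig1, which holds SREBP proteins in the endoplasmic reticulum, rose in IAT (1.19 to 2.15) and was -0.52 to 0.53 in liver (adjusted p = 0.29 there, 2.6e-05 for the difference). G6pdx, the first enzyme of the pentose phosphate pathway, which supplies NADPH, ran from 1.42 to 2.39 in liver, against -0.03 to 0.45 in IAT (-1.79 ± 0.14, adjusted p = 3.7e-07), and the later enzyme Pgd had means of 1.10 and 0.36. The lactonase Pgls, which acts between them, had the opposite difference, with 0.11 in liver and 0.43 in IAT.

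**Figure D3:**
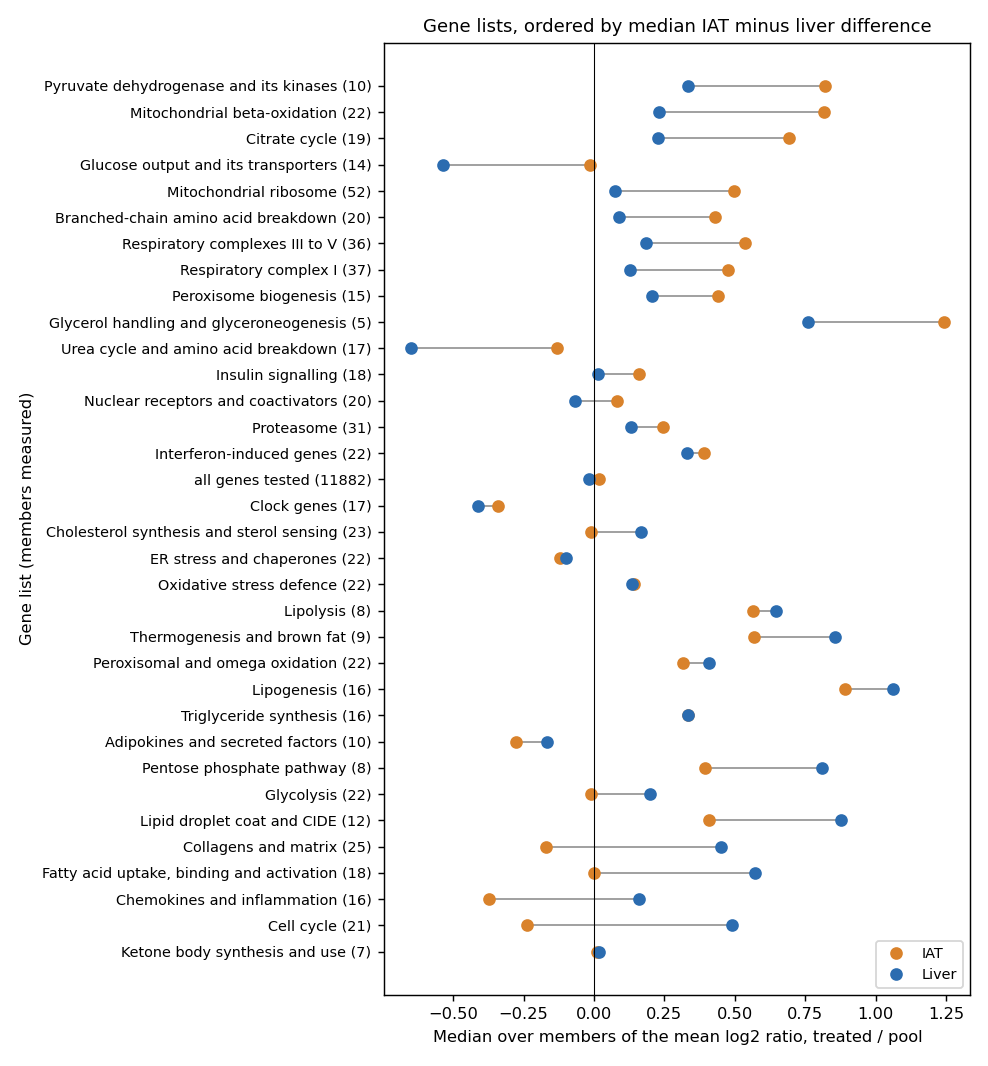
Median over the measured members of each gene list of the mean log2 ratio of treated over pool in IAT and in liver, ordered by the median difference, with the number of members in brackets and all 11882 genes for reference. Mitochondrial lists lie to the right in IAT, cell cycle and matrix lists have IAT to the left and liver to the right of 0, and the points of lipogenesis and triglyceride synthesis lie close together.

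Most mitochondrial genes rose in IAT, and most were higher there than in liver. In the β-oxidation list 21 of 22 genes rose in IAT and 17 in liver (medians 0.82 and 0.23), and 17 were higher in IAT and 1 lower. In the citrate cycle list the counts were 17 of 19 and 14 (medians 0.69 and 0.23), with 16 higher in IAT. All 37 genes of respiratory complex I rose in IAT and 22 rose in liver (medians 0.47 and 0.13), and 34 were higher in IAT. For complexes III to V, 34 of 36 rose in IAT and 29 in liver, and for the mitochondrial ribosome, which translates the mitochondrial genome, 51 of 52 rose in IAT, while 25 rose and 7 fell in liver (medians 0.50 and 0.08).

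Long-chain steps of β-oxidation were among those that differed. The very long-chain acyl-CoA dehydrogenase Acadvl ran from 1.13 to 1.44 in IAT and from 0.14 to 0.25 in liver (1.05 ± 0.06, adjusted p = 1.4e-08). Cpt2, which reforms acyl-CoA inside the mitochondrion, rose in IAT (0.67 to 0.97) and fell in liver (-0.26 to -0.09), with all 6 values of each tissue on its own side of 0 (1.01 ± 0.05, adjusted p = 9.7e-09). The trifunctional protein subunit Hadha and the thiolase Acaa2 had means of 1.07 and 0.85 in IAT and 0.16 and -0.11 in liver. A dimmer Hadha probe did not pass the test in IAT (0.09, adjusted p = 0.49) and fell in liver (-0.34). Its difference was 0.43 (adjusted p = 0.03). The medium-chain dehydrogenase Acadm rose in both without passing the test of the difference (0.94 and 0.87, 95% interval of the difference -0.11 to 0.24), and Acad10 went against the list, higher in liver (0.59) than in IAT (0.18, adjusted p = 2.4e-05).

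In the citrate cycle list, succinyl-CoA ligase Sucla2 and the cytosolic malate dehydrogenase Mdh1 had means of 1.22 and 1.10 in IAT and 0.17 and 0.08 in liver (differences 1.05 ± 0.06 and 1.02 ± 0.06). Fumarase (Fh1) rose in IAT (0.69) and fell in liver (-0.13, adjusted p = 4.1e-08). With the NADP-linked isocitrate dehydrogenase Idh2, the exception was Suclg2, which forms GTP where Sucla2 forms ATP, at -0.02 in IAT and 0.29 in liver (adjusted p = 1.6e-05). Among the respiratory subunits, Ndufb5 and Ndufb6 of complex I rose by 0.84 and 0.80 in IAT and were 0.01 and 0.01 in liver, and Cyc1 and Uqcrfs1 of complex III had 0.82 and 0.91 against 0.18 and 0.16. The subunit Cox7a1, found in muscle and brown fat, was the exception of its list, with 0.57 in IAT and 1.38 in liver (adjusted p = 0.00095). The mitochondrial ribosomal genes Mrpl39 and Mrps22 had 0.62 and 0.83 in IAT and -0.10 and 0.06 in liver.

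**Figure D4:**
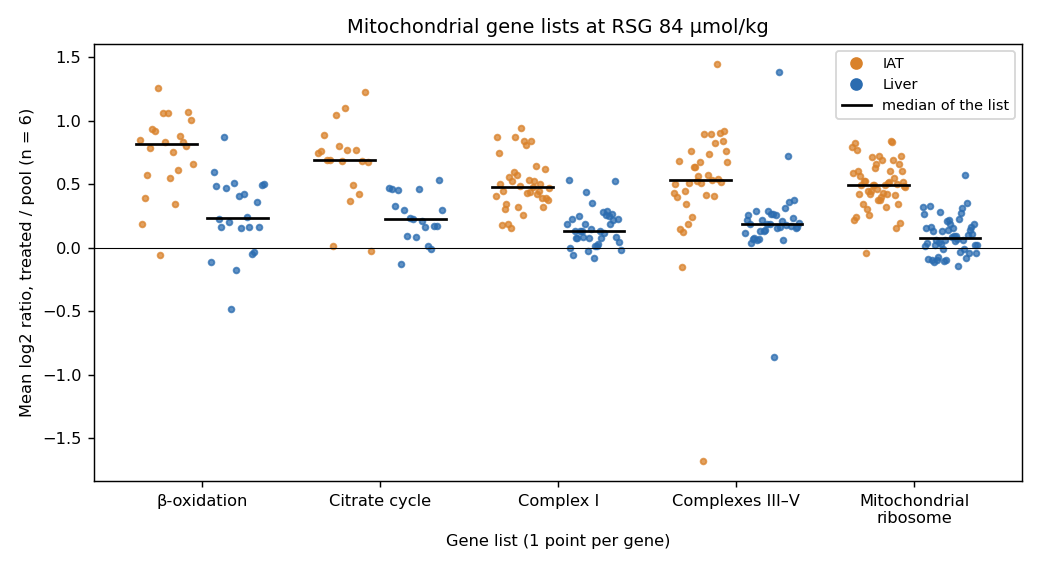
Mean log2 ratio of treated over pool (n = 6 samples) of each gene in 5 mitochondrial lists, in IAT and in liver, with the median of the list as a bar. Most IAT points lie above 0 and above the liver median of the same list, whose medians are 0.23 for β-oxidation and 0.08 for the mitochondrial ribosome.

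Mitochondrial genes are classic targets of the estrogen-related receptors, whose binding sequence TCAAGGTCA was therefore searched on both strands of the RefSeq promoters (assembly GRCm38.p6, 250 bases before to 50 after a start), next to the PPAR and RXR element, a direct repeat of AGGNCA with 1 base of any kind between, whose repeated unit TCAAGGTCA contains. Of 140 genes of the 5 mitochondrial lists with a promoter in the table, 2 held TCAAGGTCA (1.43%), against 32 of all 9494 genes tested that had one (0.337%). The repeat was held by 0 of the 140, against 37 of the 9494 (0.39%). A further sequence searched, TCACNCCAC, was in 0 of the 140 and in 142 of the 9494 (1.5%). The 2 promoters with TCAAGGTCA are given because their genes belong to the group that rose in IAT. With them stands that of the liver fatty acid binding protein Fabp1, the 1 fatty acid uptake gene of 13 with the repeat. These 3 genes were chosen after their values were seen. Capitals mark the match, which in all 3 reads in the other direction, on the strand opposite to the gene.
Sdhd, chr9:50603800-50604099, minus strand: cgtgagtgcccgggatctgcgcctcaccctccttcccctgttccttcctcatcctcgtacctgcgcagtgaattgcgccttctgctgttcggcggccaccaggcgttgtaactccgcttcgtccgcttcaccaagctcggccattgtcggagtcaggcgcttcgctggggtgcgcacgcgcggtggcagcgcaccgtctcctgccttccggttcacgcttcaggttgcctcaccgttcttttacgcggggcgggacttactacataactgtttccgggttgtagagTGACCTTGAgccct
Atp5g3, chr2:73911277-73911576, minus strand: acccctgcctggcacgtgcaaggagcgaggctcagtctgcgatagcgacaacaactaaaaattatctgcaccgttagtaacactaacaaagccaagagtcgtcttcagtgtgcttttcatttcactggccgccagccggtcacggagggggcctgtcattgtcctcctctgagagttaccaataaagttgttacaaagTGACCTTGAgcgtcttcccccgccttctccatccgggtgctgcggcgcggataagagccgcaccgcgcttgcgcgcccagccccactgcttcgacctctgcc
Fabp1, chr6:71199629-71199928, plus strand: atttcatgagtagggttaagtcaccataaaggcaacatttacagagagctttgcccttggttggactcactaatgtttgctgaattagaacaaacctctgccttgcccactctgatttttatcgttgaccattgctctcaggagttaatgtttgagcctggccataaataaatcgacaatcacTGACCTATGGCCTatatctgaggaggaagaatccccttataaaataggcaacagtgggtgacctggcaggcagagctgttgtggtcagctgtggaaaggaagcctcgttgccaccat
Sdhd, a membrane anchor of complex II, had a mean of 0.68 in IAT and 0.17 in liver (adjusted p = 3.4e-06 for the difference), and Atp5g3, a subunit of the ATP synthase ring, 0.44 and 0.29 (adjusted p = 0.024, and 0.27 with median-centred ratios, 0.050 without liver replicate 5 and 0.054 without IAT replicate 2). Fabp1 had medians of 0.04 in IAT and 0.57 in liver, and its difference did not pass the test (adjusted p = 0.17, and 0.049 without IAT replicate 2). A match of letters in these windows is not a binding site.

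Pyruvate and amino acid fuels followed the mitochondrial genes. Of 10 genes for pyruvate entry and its control, 9 rose in IAT and 8 in liver, and 7 were higher in IAT. Pdhb, a subunit of pyruvate dehydrogenase, had means of 1.32 in IAT and 0.33 in liver (adjusted p = 6.9e-08), and the mitochondrial pyruvate carrier Mpc1 0.96 and 0.16. The kinase Pdk4, which shuts pyruvate dehydrogenase, was the exception: it fell in IAT (-1.42 to 0.12, median -0.61) and rose in liver (0.45 to 1.63, median 1.11), a difference of -1.66 ± 0.26 (adjusted p = 0.0001). Of 20 genes of branched-chain amino acid breakdown, 17 rose in IAT, 8 rose and 5 fell in liver, and 15 were higher in IAT. Of all genes, 36.8% rose in IAT, 29.6% rose in liver and 38.0% were higher in IAT. Dbt, of the branched-chain ketoacid dehydrogenase, had 0.68 and -0.17, and Pcca, of propionyl-CoA carboxylase, 0.80 and 0.05.

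Glucose handling separated the tissues at named steps. The liver isoform of glycogen synthase, Gys2, ran from 2.35 to 3.05 in IAT and from 0.27 to 0.37 in liver (2.46 ± 0.09, a 5.51-fold difference, adjusted p = 5.6e-10). Every IAT sample exceeded every liver by a wide margin, although both tissues rose. The fructose transporter Slc2a5 rose in all IAT samples (1.35 to 1.92) and fell in all livers (-1.53 to -0.86), a difference of 2.75 ± 0.12 (adjusted p = 2.3e-09), or 1.75 with normexp and loess. The transporter Slc2a2 (GLUT2), through which liver exports glucose, had means of 0.30 in IAT and -0.55 in liver, and glucose-6-phosphatase (G6pc), the last step of glucose output, fell in both, to -0.21 and -0.79 (adjusted p = 0.00021 for the difference).

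Over the list of 14 glucose output genes and transporters, 8 fell and 3 rose in liver, 6 fell and 6 rose in IAT, and 9 were higher in IAT (medians -0.54 and -0.02). Of all genes, 33.4% fell in liver, 32.4% fell in IAT and 38.0% were higher in IAT. Hexokinase 2 (Hk2), the insulin-induced enzyme that traps glucose, ran from 2.11 to 2.59 in liver and from -0.24 to 0.21 in IAT (-2.30 ± 0.10, adjusted p = 1.7e-09). By its brightest probe, hexokinase 1 (Hk1) rose in liver (0.37) and fell in IAT (-0.51, adjusted p = 4.7e-07 for the difference). Dimmer Hk1 probes did not show these opposite responses. Their means were 0.06 and -0.30 in IAT and 0.16 and -0.06 in liver. Their differences of -0.10 and -0.24 did not pass the test (adjusted p = 0.20 and 0.071). Of the insulin signalling genes, Tbc1d4 (AS160) holds GLUT4 vesicles inside the cell until insulin signalling inhibits it. Tbc1d4 ran from 1.09 to 1.69 in IAT and from -0.27 to 0.34 in liver (1.35 ± 0.12, adjusted p = 1.4e-06). The receptor substrate Irs1 rose in IAT (0.34) and fell in liver (-0.45). Of all 18 genes of this list 10 were higher and 3 lower in IAT, beside 38.0% and 28.1% of all genes.

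Of 5 glycerol genes measured, 4 rose in IAT and 4 in liver, beside 36.8% and 29.6% of all genes. Glycerol kinase (Gk), which phosphorylates free glycerol for re-esterification, ran from 1.66 to 2.39 in IAT and from -0.36 to -0.03 in liver, where it did not pass the test (adjusted p = 0.06), a difference of 2.20 ± 0.11 (adjusted p = 7.2e-09). Glycerol-3-phosphate dehydrogenase (Gpd1) and pyruvate carboxylase (Pcx) rose in both, to 1.83 and 1.03 in IAT and 1.43 and 0.76 in liver, the Gpd1 spot being saturated for treated RNA on 6 of 12 IAT arrays. A dimmer Gpd1 probe gave a difference of 0.75, next to 0.40 here and 0.07 with the treated mouse in Cy3 alone. Of 16 triglyceride synthesis genes 10 rose in IAT and 11 in liver, beside 36.8% and 29.6% of all genes, with medians of 0.33 and 0.33. Dgat1, which closes the triglyceride, had 0.65 and 0.66 (95% interval of the difference -0.22 to 0.20).

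Many genes of proliferation, matrix and vessels moved in opposite directions in the tissues. Of 21 cell cycle genes, 18 rose and 0 fell in liver, whereas 3 rose and 10 fell in IAT (medians 0.49 and -0.24), and 9 were called in opposite directions. The replication helicase subunits Mcm3 and Mcm6 fell in IAT (means -0.32 and -0.54) and rose in liver (0.55 and 0.53, adjusted p = 4.3e-07 and 1.4e-06). Mcm2 of the same helicase rose in liver (1.07) and did not pass the test in IAT (-0.06, adjusted p = 0.48), and cyclin E1 (Ccne1), which starts DNA replication, was the 1 member higher in IAT (0.44 against -0.01).

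Of 25 collagen and matrix genes, 17 rose and 5 fell in liver, 4 rose and 11 fell in IAT, and 19 were lower in IAT (medians 0.45 in liver and -0.17 in IAT). The basement membrane collagen Col4a1 rose in all livers (0.97 to 1.27, median 1.12) and fell in all IAT samples (-0.66 to -0.41, median -0.54), a difference of -1.65 ± 0.06 (adjusted p = 6.6e-10). The fibrillar collagens Col1a1 and Col3a1 had means of 1.75 and 1.06 in liver and 0.05 and -0.29 in IAT, and the matrix protein Sparc 0.65 and -0.55. Col15a1, a basement membrane collagen abundant in fat, went the other way (0.51 in IAT, -1.21 in liver, adjusted p = 3.6e-08), a difference of 1.72, or 0.93 with normexp and loess. Also higher in IAT were the matrix proteins Fn1, which fell in liver (-0.76) and was at -0.02 in IAT, and Bgn, at 0.03 in liver and 0.18 in IAT, whose difference did not pass the test with median-centred ratios (adjusted p = 0.22) or in a fit over all 72 treated samples (0.16).

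Markers of vessels and of macrophages moved with these lists. All 12 endothelial markers rose in liver, while 8 fell and 2 rose in IAT, and the list median of each sample lay between 0.20 and 0.46 in liver and between -0.29 and -0.07 in IAT. Esam, Tie1 and Vwf, of endothelial junctions, signalling and clotting, fell in IAT (-0.29, -0.52 and -0.26) and rose in liver (0.33, 0.15 and 0.44), whereas Kdr (VEGFR2) rose in both. Of the 12 pericyte and smooth muscle markers listed, 10 were measured in both tissues. All 10 fell in IAT and 3 rose in liver. Rgs5, which marks pericytes, had means of -1.34 in IAT and 0.34 in liver (adjusted p = 5.4e-07). Cspg4 and Higd1b, not measured in both, had median signals of 1350 and 1780 in the IAT pool and 1630 and 1960 in treated IAT. In IAT replicates 1, 2 and 5 the list medians were lowest, at -1.53, -1.47 and -1.24. Those of the skeletal muscle markers were lowest there too, at -3.43, -3.18 and -1.69. Whether muscle in the pool bears on these markers was not tested. Of 17 macrophage markers 14 rose and 1 fell in liver, and 8 fell and 1 rose in IAT. None of the 17 was called higher in IAT, where the largest difference was 0.79. Itgax, 1 of the 17, entered in liver only through the treated RNA, above background on 8 arrays against 4 for the pool. The filter thus favoured a rise of Itgax in liver. The summed median signal of the 18 macrophage markers listed went from 223000 in the pool to 177000 in treated IAT and from 46700 to 53700 in liver. In these sums Lyz2 alone went from 138000 to 101000 in IAT and from 15300 to 18500 in liver. The summed signal of the endothelial markers listed went from 104000 to 97500 in IAT and from 10700 to 13600 in liver. The part of such cells in the matrix and cell cycle results was not tested.

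Of 16 inflammatory genes measured, 8 fell and 1 rose in IAT and 5 rose and 1 fell in liver, beside 32.4% of all genes that fell in IAT and 29.6% that rose in liver. The list medians of single samples overlapped, from -0.86 to -0.03 in IAT and from -0.28 to 0.89 in liver. The monocyte chemokine Ccl2 ran from -1.52 to -0.41 in IAT and from 0.06 to 1.29 in liver (-1.44 ± 0.23, adjusted p = 0.00014), and the macrophage receptors Cd14 and Msr1 fell in IAT (-0.76 and -0.59) and rose in liver (0.28 and 0.53). By its brightest probe, the stromal chemokine Cxcl12 went the other way, falling in liver (-0.90) and at 0.00 in IAT. A dimmer Cxcl12 probe fell in both tissues, to -0.35 in IAT and -0.55 in liver. Its difference of 0.20 did not pass the test (adjusted p = 0.09).

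**Figure D5:**
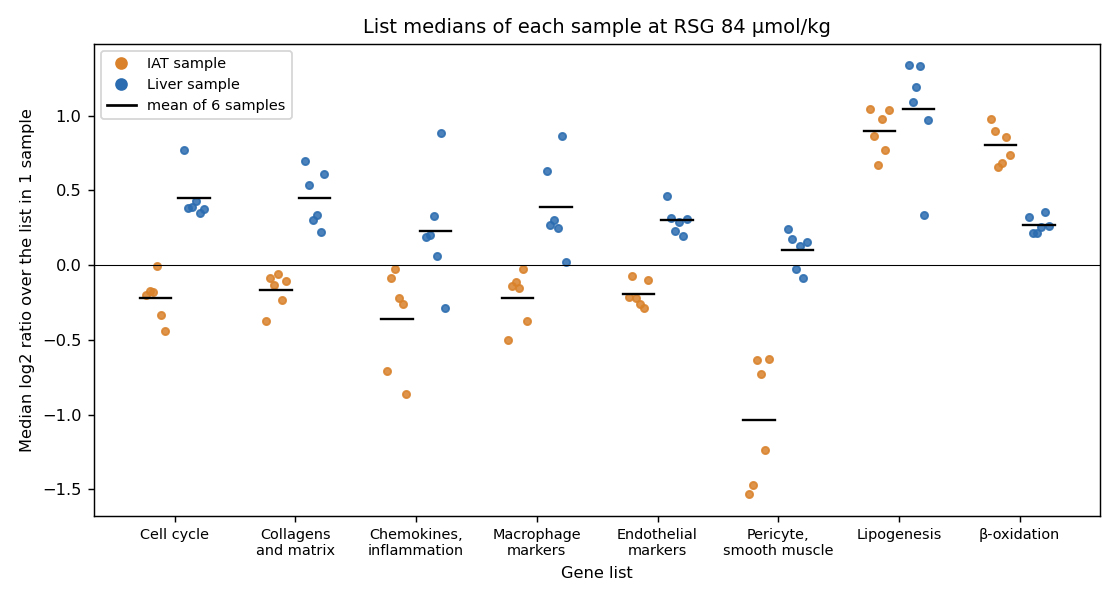
Median log2 ratio over the measured members of 8 gene lists in each of the 6 IAT and 6 liver samples, with the mean of the 6 samples as a bar. IAT and liver samples lie on opposite sides of 0 for the cell cycle, matrix, macrophage and endothelial lists without overlap, overlap for chemokines and lipogenesis, and for lipogenesis 1 liver, replicate 5, lies at 0.33 below all others.

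Other genes with opposite and large responses came from several functions. Noct, whose mRNA cycles with the clock, and Cth, which makes cysteine, rose in IAT (medians 1.04 and 0.99) and fell in liver (-1.44 and -0.94), as did Col27a1, a cartilage collagen (means 1.12 and -1.62, difference 2.74, or 1.49 with normexp and loess). Cyp2c55, a fatty acid oxidising cytochrome, and the elongase Elovl7 fell in IAT (-2.60 and -1.98) and rose in liver (1.89 and 5.48). The difference of Elovl7 (-7.46 ± 0.14, adjusted p = 7.8e-13) was second in size to that of Cfd. It ran from -7.56 to -5.44 over the alternatives of processing, and a dimmer Elovl7 probe gave -6.06. Nnmt, which methylates nicotinamide, rose in IAT (0.42) and fell in liver (-1.13, adjusted p = 7.3e-07). The coactivators Ppargc1a and Ppargc1b (PGC-1α and PGC-1β), which drive mitochondrial genes, fell in liver (-0.66 and -0.30), and in IAT Ppargc1b rose (0.45) while Ppargc1a did not pass the test (0.18, adjusted p = 0.051).

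Of 10 genes that mark brown adipocytes, 6 were measured in both tissues, and these rose in both. Otop1 entered the comparison in liver only through the treated RNA, above background on 12 arrays against 1 for the pool, so that its rise there was fixed by the filter. The defining marker Ucp1 was above background on none of the liver arrays, in the pool or in treated liver. In IAT the median signal of Ucp1 was 13600 in the pool and 105000 in treated samples. Of the other markers not measured in both tissues, Dio2 went from 224 to 1150 in IAT and Cox8b from 10600 to 26400. Zic1 went from 34 to 38.4. Cidea, a droplet protein of brown fat, ran from 2.56 to 3.43 in IAT and from 3.73 to 4.72 in liver (-1.33 ± 0.19, adjusted p = 4.8e-05), so that every liver exceeded every IAT sample. Without passing the test of the difference, the elongase Elovl3 rose in both (2.56 and 2.42, 95% interval of the difference -0.15 to 0.42, though with the treated sample in Cy5 alone it was 0.29 with an adjusted p of 0.047), and so did the peroxisomal enzyme Ehhadh (1.44 and 1.40, -0.21 to 0.30). Of 22 peroxisomal and omega oxidation genes 16 rose in IAT and 14 in liver, beside 36.8% and 29.6% of all genes. Among them the thiolase Acaa1b (1.03 and 1.96) and the carnitine acetyltransferase Crat (0.34 and 1.38) were higher in liver. Most clock genes fell in each tissue (12 in IAT and 12 in liver of 17), but the repressors Cry1 and Nfil3 rose in IAT (0.47 and 0.73) and fell in liver (-0.82 and -0.41). The difference for Cry1 was 1.28, or 0.43 with normexp and loess. Cry1 dropped out under the filters that ask both channels to be above background, so its ratios rest partly on a channel near background.

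For some genes the pool stood apart from every treated mouse. For 61 genes every one of the 36 treated IAT samples of the series, whatever the compound or dose, lay 1 log2 unit or more under its pool, and for 2 genes every one of the 36 treated livers. Likewise 1 gene lay 1 log2 unit or more above its pool in all treated IAT samples and 38 genes in all treated livers. Cyp2c55 and Lrrc19 were among the 61, and so were Guca2a, Pyy and Lgals4, known from gut epithelium and chosen after their values were seen, with means of -3.64, -1.58 and -3.33 in IAT and -0.20, -0.18 and -0.54 in liver. Lrrc19 and the endodermal transcription factor Foxa2 were well above background in the IAT pool on all 12 arrays and in treated IAT on none, and were at least 17.8-fold and 26.3-fold lower in treated IAT (the pool's mean against the higher of the probe's own signal and the lowest signal well above background). The epithelial keratins Krt8 and Krt19 had medians of -3.96 and -4.11 in IAT and 0.24 and -0.14 in liver, the summed signal of the 18 epithelial markers was 99500 in the IAT pool and 18200 in treated IAT, and IAT replicate 4 was the highest IAT sample for both keratins. The maternally expressed noncoding RNA Rian and the myosin Myh1 of skeletal muscle fibres were above background in the liver pool on all 12 arrays and in treated liver on none, at least 3.75-fold and 4.03-fold lower. With normexp and loess the difference of Rian was 1.52, next to 4.55, and that of Myh1 was 0.25, next to 2.97, and no longer passed the test (adjusted p = 0.78), and its IAT values began at -3.41 with a median of -0.33. The summed muscle signal was 1340000 in the IAT pool, 429000 in treated IAT, 3510 in the liver pool and 2390 in treated liver. What these pools held besides the named tissue was not tested. Without the probes this far below a pool, 7783 genes differed, 4511 higher and 3272 lower in IAT.

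The other doses and the second compound of the series, S, share these pools and so repeat any offset of a pool, and their values are given side by side. At 28 µmol/kg RSG, 84 µmol/kg S and 280 µmol/kg RSG, the difference of Cfd was -7.51, -7.32 and -8.79, and that of Scd1 -3.00, -2.80 and -2.91. For Plin4 it was -3.70, -1.88 and -3.85, where S raised the liver value to 1.25 and 84 µmol/kg RSG to 3.26. Of genes raised in IAT, Acadvl gave 0.28, 0.32 and 1.41, Gk 1.03, 1.48 and 2.49, and Gys2 1.43, 2.21 and 2.68, next to 1.05, 2.20 and 2.46 at 84 µmol/kg RSG. No test between doses or compounds was made on these values.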

How the data were processed

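RNA of 84 samples, 1 mouse each, was hybridised against the pool of its tissue on 2-colour Agilent whole mouse genome arrays (45018 spots), each sample on 2 arrays with the dyes exchanged. The authors scanned the arrays with Agilent Feature Extraction 9.5, per the file headers, which gives intensity values for each channel after background subtraction and dye normalisation, and deposited the log10 ratio of Cy5 over Cy3. A further deposited table holds log10 ratios that the authors combined over both arrays of a sample.

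From these, the log10 ratios were turned to treated over pool, converted to the log2 scale and averaged over the dye-swap pair, without outlier spots. Probes well above background in the treated or pool channel on at least 6 of 12 arrays in each tissue were kept. The 6 IAT and 6 liver samples were compared in limma 3.58.1 (R 4.3.3) with lmFit and trended eBayes, with Benjamini-Hochberg adjustment across the probes kept and calls at an adjusted p under 0.05. Genes were read from the brightest of their probes. Genes named were those with the 12 highest and 12 lowest differences, those with the largest opposite or shared responses (8 of each), the 4 of each list with the smallest p and 1 against the majority, and genes the study discusses for these tissues. The samples, the gene lists and the named genes were chosen with earlier results of these data known, and the numbers of the lists therefore stand as counts and medians with no test of their own. The fit was tested on simulated data. Alternatives were normexp background correction with loess, median centring, other filters, single dyes, the table of combined ratios, other fits and leaving out each sample. Liver and IAT appear to come from the same mice, but no pairing was used, since the labels do not tie a liver to an IAT sample. The number of arrays limits the precision. Symbols came from the array files and were updated through RefSeq accessions for 23374 of the 25617 probes that carry one. A technical repeat of liver samples was not used here.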

Additional observations from a re-analysis of the deposited data

Results flagged for a closer look

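The response differed between IAT and liver for 7846 of 11882 genes by the test of the difference itself. Among 210 groups of 6 values, those of 105 of the genes named here in each tissue, 17 held a sample that stood apart from the other 5 by Dixon's criterion at 95%, where chance gives about 1 group in 20. Liver replicate 5 made up 8 of these, with low values of lipid genes, namely Fasn 0.82, Scd1 2.05, Acly -0.36, Acacb 0.66, Slc25a1 0.065, Acsl5 0.47, Acaa1b 1.62 and the glucose transporter Slc2a4 -1.88. The other 5 livers were at 2.05 to 2.63 for Fasn and 2.54 to 2.74 for Scd1. IAT replicate 4 was above the other IAT samples for the keratins Krt8 (-2.16) and Krt19 (-1.72), and IAT replicate 5 was low for Pnpla3 (-0.30) and Nfil3 (0.15). Single values also stood apart for Hadha in liver replicate 6 (0.31), Vwf in liver replicate 1 (0.83), Acad10 (0.033) and Tie1 (-0.32) in IAT replicate 6, and Cyc1 in IAT replicate 1 (0.97).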

How the results depend on the processing

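The 105 genes checked leave out some genes named here, such as Lrrc19, Foxa2, Otop1 and Pgls. All but 9 of the 105 kept the call of their difference in every alternative in which they were measured. The same held for 2786 of 2815 pairs of gene and alternative, and no called difference changed sign. The uncalled differences of Acadm (-0.05 to 0.18), Dgat1 (-0.10 to 0.05) and Ehhadh (-0.05 to 0.13) did change sign. Counts of probes moved by over 1.5 times in these cases: at the study's own thresholds (unadjusted p under 0.001 and 1.3-fold) the difference was called for 6260 probes (3831 higher and 2429 lower in IAT), the IAT response for 5085, the liver response for 3959, opposite responses for 369 (143 higher and 226 lower in IAT) and shared responses for 913 (599 up and 314 down), next to 14231, 14985, 13386, 3609 and 5727. Probes that rose in IAT and fell in liver numbered 1451 with normexp and loess and 1423 with median-centred ratios, next to 2228. A called difference was found for 13364 to 14161 probes when each sample was left out in turn. With the replicate number as a block the count was 14546, with slide as a random block 13200 and with scan day 14351. The deviations of same-numbered IAT and liver samples correlated at 0.04 to 0.43, over 0.1 in 3 of 6 pairs, and each sample correlated best with its own number, which is a hint from the data and not from the design. The median signal was 1.87 times the background in liver and 3.73 times in IAT, which limits the ratios of dim probes.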
